A study of Mus musculus with 28 samples.

Results

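Protocadherins are the largest group of cadherin-related adhesion proteins, and the brain expresses nearly all of them. The genes were read here in frontal cortex of 20 months old mice with a knock-in mutation of Tardbp, which encodes TDP-43, a protein that binds RNA. They were taken from the table of raw counts by name, as the rows whose symbol begins with Pcdh followed by a, b, g or a digit, and a mean of at least 0.5 CPM (the count per 1e6 counts of the library) over the 28 libraries was required. Of 36 such rows among 25900 genes, 34 passed. They were 21 beta genes (Pcdhb2 to Pcdhb22), 1 row each for the alpha and gamma clusters, and 11 single genes (Pcdh1, Pcdh7, Pcdh8, Pcdh9, Pcdh10, Pcdh11x, Pcdh15, Pcdh17, Pcdh18, Pcdh19 and Pcdh20). Pcdhb1 at 0.0678 CPM and Pcdh12 at 0.177 CPM fell below the minimum, and the member nearest to it was Pcdhb6 at 2.84 CPM.

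All mice were on the C57BL/6 background. The 8 wild-type (WT) libraries had the genotype +/+, the 10 heterozygous (HET) libraries Q331K/+ and the 10 homozygous (HOM) libraries Q331K/Q331K. Q331K is a substitution in TDP-43 known from amyotrophic lateral sclerosis, and a knock-in places it in the gene itself, so that all cells that express Tardbp carry it under its own promoter. Counts per gene do not show which allele a read came from. Whether every numbered library was made from a different animal is not stated, nor are sex, litter or batch. P-values therefore rest on the variation from library to library, part of which can be technical.

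Clustered protocadherins lie in 3 neighbouring arrays called alpha, beta and gamma. In the alpha and gamma arrays each of many variable first exons has its own promoter and is spliced to the same constant exons, whereas each beta gene is a single exon. A neuron switches on only a few of these promoters, and its set of isoforms binds the same set on another membrane and serves in self-recognition of dendrites and axons. The non-clustered or delta protocadherins are ordinary genes with broader and region-dependent expression. Delta 1 members (Pcdh1, Pcdh7, Pcdh9 and Pcdh11x) and delta 2 members (Pcdh8, Pcdh10, Pcdh17, Pcdh18 and Pcdh19) differ in the number of cadherin repeats and in their cytoplasmic motifs, and act in axon growth, synapse formation and circuit wiring. TDP-43 binds RNA rich in UG repeats and is known to act on splicing and on long introns of neuronal genes.

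Both constant-exon arrays were present in the table as 1 row each. The row named Pcdhac1 (ENSMUSG00000007440, GRCm38, chr18:36930285-37187657, plus strand) spans the first exons of all 14 alpha genes of GENCODE vM21, where this identifier carries another alpha symbol. The row named Pcdhga11 (ENSMUSG00000023036, chr18:37674335-37841873, plus strand) spans the first exons of 20 of the 22 gamma genes. Which exons were counted is inferred from these spans, since the annotation used for counting is not known. They are called the alpha row and the gamma row here, and no single alpha or gamma isoform can be read from them, the C-type isoforms included. Between these rows lie the beta genes, which resemble each other in sequence: up to 12% of the 50-base words of a gene (Pcdhb12) also occurred in another member, so that reads there could be split or dropped in counting. Exons of Pcdhb21 overlap Pcdhb22, and exons of Pcdh7, Pcdh8, Pcdh10, Pcdh19, Pcdhb12 and both array rows overlap a gene on the other strand. Since the strand setting of the counting is not given in the sources used here, those values are uncertain to that extent. Both array rows also overlap genes on their own strand. These are Gm18150, Gm37013, Gm37388 and Gm42416 for the alpha row, and Gm37013, Gm37388, Gm38182 and Gm42416 for the gamma row. How reads in such shared exons were assigned is not known, so neither row is certain to be a clean total of its array.

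Total counts ran from 30.46 to 74.91 M (M for 1e6 reads) per library. The members together took 0.169% to 0.176% of the scaled counts in WT, 0.167% to 0.178% in HET and 0.163% to 0.175% in HOM. The tissue label was met by its markers: 12 excitatory neuron genes summed to 6291 to 6828 CPM in WT and 6157 to 7362 CPM in HOM. Striatal neuron markers summed to 264 to 836 CPM in WT, 304 to 485 CPM in HET and 283 to 697 CPM in HOM. WT 6 and HOM 3 lay at the opposite ends of the first principal component of all genes.

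In HOM cortex 5 of the 34 protocadherin rows were lower than in WT and none was higher (edgeR quasi-likelihood test, Benjamini-Hochberg adjusted p under 0.05 over 16110 genes). The lower rows were Pcdhb5, Pcdh9, Pcdh11x, the alpha row and Pcdh10. Among all genes 7.61% were called in either direction and 3.71% were called lower, against 14.7% of the members. Their log2 fold changes ran from -0.34 to 0.19 with a median of -0.07, beside a median of 0.005 over all genes, and 26 of the 34 (76.5%) were below 0, beside 47.7% of all genes. At an unadjusted p under 0.05 there were 10 lower members, beside 11.4% of all genes that were lower at that p. DESeq2 and limma voom each called 6 members, all lower, beside 5.06% and 4.4% of all genes called lower by these tools. The gamma row, the most abundant of all, had a log2 fold change of 0.00. In RNA from whole tissue, fewer cells of a type and less RNA per cell cannot be told apart.

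**Figure D1:**
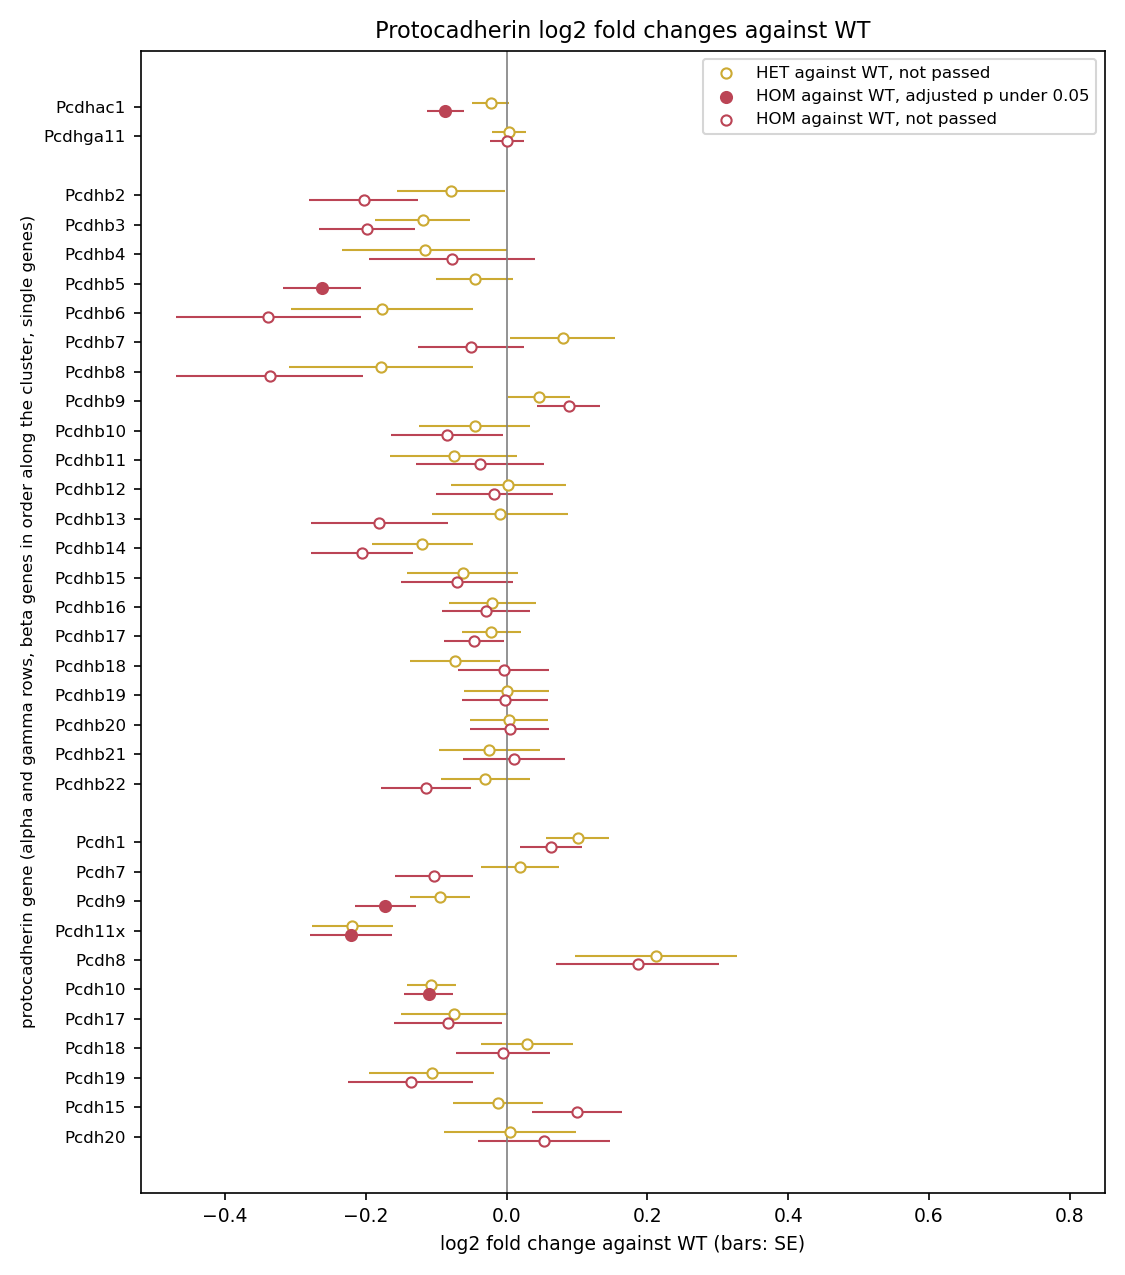
Log2 fold change against WT (x axis, points, bars for the standard error) for the 34 protocadherin rows (y axis), with HET in yellow and HOM in red, and filled points where the adjusted p was under 0.05. The 5 filled HOM points lie between -0.26 and -0.09, and no HET point is filled.

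Among the beta genes, 1 of 21 (4.76%) passed the test in HOM against WT, near the 3.71% of all genes called lower. Pcdhb5 (ENSMUSG00000063687, chr18:37320381-37323913, plus strand, a single exon), one of the homophilic adhesion proteins of the beta array, lay at 7.46, 8.30 and 9.38 CPM (lowest, median and highest) in WT, 7.08, 8.18 and 9.11 CPM in HET and 6.05, 7.01 and 8.11 CPM in HOM. All 10 HOM libraries were below the WT mean and 8 were below the lowest WT library, while the HET libraries overlapped WT. Its log2 fold change in HOM against WT was -0.26 (SE 0.06, adjusted p = 0.00458, edgeR), and it remained called when any 1 of the 28 libraries was left out, with log2 fold changes of -0.29 to -0.24.

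The next beta genes by p did not pass. Pcdhb3 stood at 8.77, 9.27 and 12.1 CPM in WT and at 7.37, 8.57 and 10.1 CPM in HOM, where 7 of 10 libraries lay below the lowest WT library. Its log2 fold change was -0.20 (SE 0.07, adjusted p = 0.0695, edgeR), and DESeq2 and limma voom called it. Pcdhb14 had 8.25, 9.31 and 11.1 CPM in WT and 6.92, 8.26 and 10.0 CPM in HOM, a difference of -0.21 in log2 (SE 0.07, edgeR adjusted p = 0.0764). Both genes had 9 of 10 HOM libraries below the WT mean, with overlapping groups. For Pcdhb2, at 3.07, 3.69 and 4.18 CPM in WT and 2.75, 3.11 and 4.02 CPM in HOM, the value was -0.20 (SE 0.08, edgeR adjusted p = 0.102). Pcdhb6, the least abundant member, had -0.34 with an SE of 0.13, and its WT libraries alone ranged from 2.48 to 4.27 CPM. That difference did not pass (edgeR adjusted p = 0.107).

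Not all beta genes were below WT. Pcdhb9, the most abundant per length, stood at 20.7, 22.9 and 24.4 CPM in WT, 21.2, 23.6 and 26.5 CPM in HET and 22.0, 23.9 and 26.9 CPM in HOM. Of the HOM libraries 5 lay above the highest WT library, yet the log2 fold change of 0.09 (SE 0.04) did not pass (edgeR adjusted p = 0.22). Pcdhb17 and Pcdhb20, next in abundance per length, had log2 fold changes of -0.05 (SE 0.04) and 0.00 (SE 0.06). The other beta genes had log2 fold changes between -0.34 and 0.01, and none passed with edgeR. Pcdhb8, named here after its values were seen, was at -0.34 (SE 0.13, edgeR adjusted p = 0.113), and limma voom called it (adjusted p = 0.0139).

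The size of the difference varied along the array. The array was split into 3 stretches of 7 genes each after the values had been seen, so the split is a description and was not tested. In the first 7 genes, Pcdhb2 to Pcdhb8, all 7 log2 fold changes of HOM against WT were below 0, with a median of -0.20. In the next 7, Pcdhb9 to Pcdhb15, 6 were below 0, with a median of -0.07. In the last 7, Pcdhb16 to Pcdhb22, 5 were below 0 and the median was 0.00, with a range from -0.11 to 0.01. The first 7 genes supplied 21.5%, 24.1% and 25.2% (lowest, median and highest) of the summed beta CPM in WT, 21%, 23.5% and 25.3% in HET and 19.9%, 21.7% and 24.5% in HOM. The ranges of all 3 genotypes overlapped, with the HOM median near the low end of WT.

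**Figure D2:**
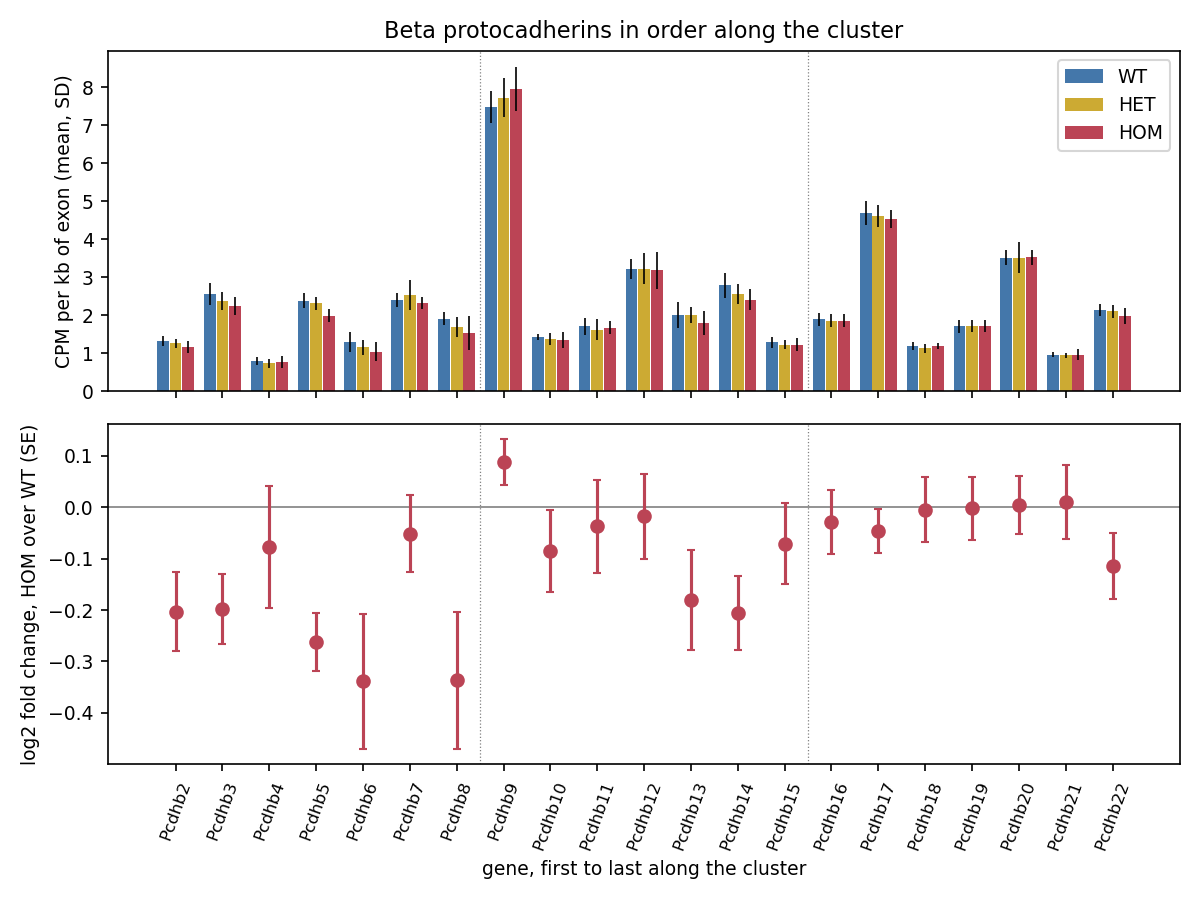
Beta protocadherin genes in order along the array (x axis), with the mean level in CPM per kb of exon by genotype in the upper plot (bars, SD as lines) and the HOM difference from WT in log2 with its SE in the lower plot; dotted lines separate groups of 7 genes. Pcdhb9 is the tallest at 7.49 CPM per kb in WT, and the median log2 fold change goes from -0.20 in the first 7 genes to 0.00 in the last 7.

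Levels per kb of exon in WT differed 9.32-fold between the highest and lowest beta gene. Pcdhb9 led with 7.49 CPM per kb, followed by Pcdhb17 with 4.69 and Pcdhb20 with 3.51, and Pcdhb4 was lowest with 0.803. In that order 18 of the 20 neighbouring pairs had overlapping WT ranges, and the pairs that did not were at the top. Measured levels of beta genes correlated weakly from library to library. After the genotype means were taken out, the median correlation of log2 CPM over 28 libraries was 0.14 for the 210 pairs of beta genes. For the 20 pairs that are neighbours on the array it was 0.23. These libraries share depth and tissue makeup, and the values are given as a description. Part of the variation can be counting noise in rows of low CPM, and how far that lowers the correlations was not tested.

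The alpha row, taken from its span as the total of the alpha array, was lower in HOM. It stood at 177, 186 and 192 CPM in WT, 172, 184 and 200 CPM in HET and 161, 176 and 183 CPM in HOM. All 10 HOM libraries were below the WT mean and 6 were below the lowest WT library, while HET spread over the WT range and beyond it. Its log2 fold change was -0.09 (SE 0.03, adjusted p = 0.0418, edgeR), the smallest of the 5 called. The call was lost without HOM 10, the lowest library (-0.08, edgeR adjusted p = 0.0589), and in 7 other cases of leaving out 1 library, namely WT 1, 2, 3, 6 or 7 and HOM 2 or 3.

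The gamma row, whose isoforms include those known to be needed for the survival of many neurons, did not pass in any comparison. It stood at 583, 620 and 641 CPM in WT, 602, 614 and 641 CPM in HET and 589, 605 and 671 CPM in HOM, with the 3 groups overlapping. The log2 fold change of HOM against WT was 0.00 (SE 0.02, 95% interval -0.05 to 0.05, edgeR), and over 39 alternative analyses it ran from -0.02 to 0.01. The beta genes summed to 162, 171 and 181 CPM in WT and 151, 164 and 176 CPM in HOM. Of the clustered CPM the gamma row took 61.0%, 63.6% and 64.3% in WT and 63.4%, 64.2% and 66.7% in HOM, in overlapping ranges. Across the 28 libraries the correlation of the alpha and gamma rows was -0.03 after the genotype means were removed. Switching between isoforms within either array would not be seen in these rows.

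**Figure D3:**
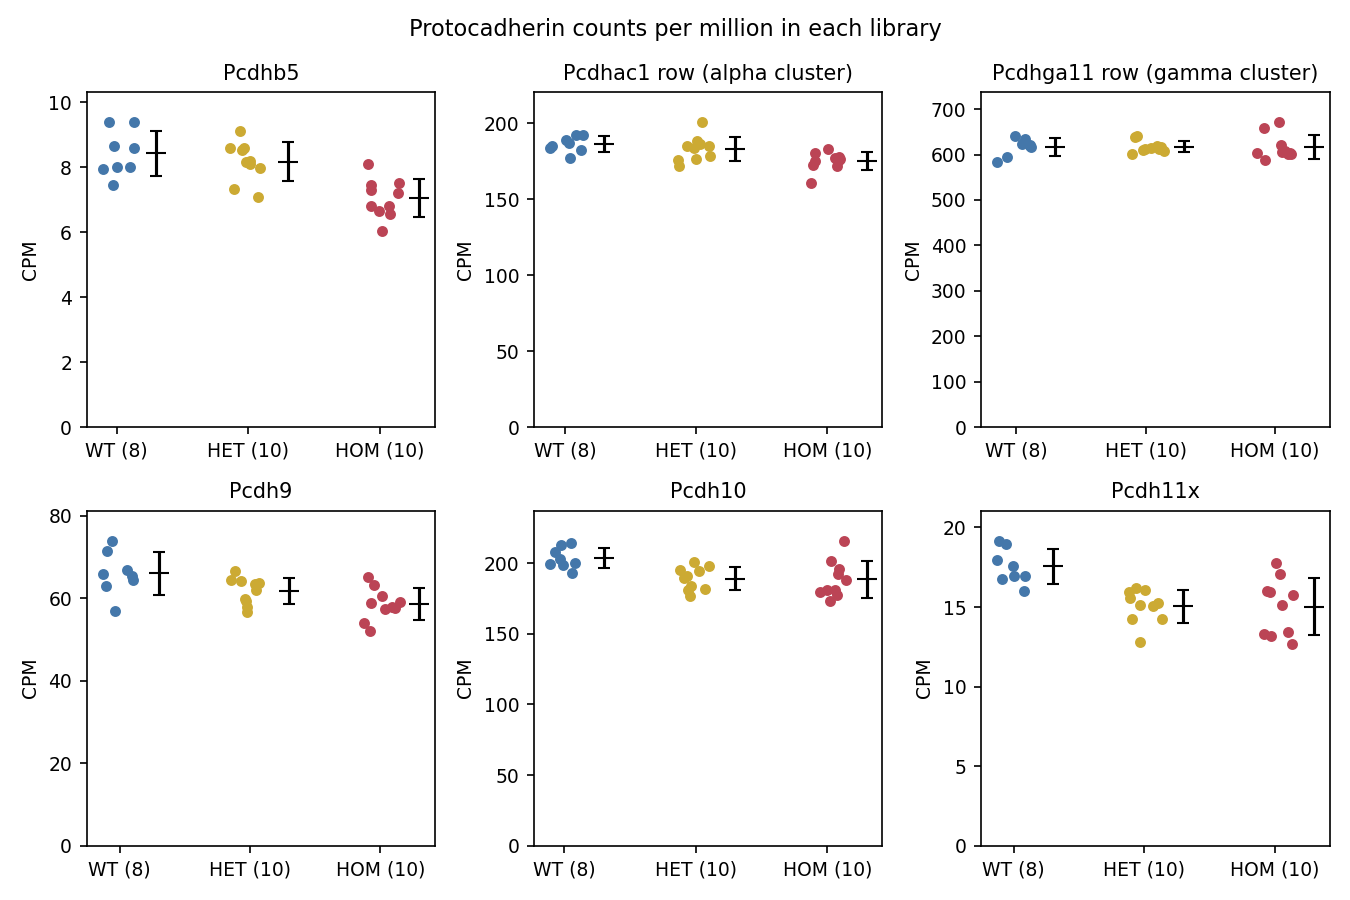
CPM in each library (y axis, from 0) by genotype (x axis, number of libraries in brackets) for the 5 rows called lower in HOM and for the gamma row; black marks give the mean and SD. Pcdhb5 falls to a median of 7.01 CPM in HOM from 8.30 in WT, the HET means of Pcdh10 and Pcdh11x (189 and 15.1 CPM) are near their HOM means (189 and 15 CPM), and the gamma row means lie between 616 and 618 CPM.

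Among the single genes 3 of 11 were lower in HOM than in WT and none was higher, beside 3.71% of all genes called lower. Of the delta 1 genes 2 of 4 were called. Pcdh9 (ENSMUSG00000055421, GRCm38, chr14:93015512-93888732, minus strand), a delta 1 protein of cortical neurons, stood at 56.9, 65.6 and 73.8 CPM in WT, 56.7, 62.7 and 66.5 CPM in HET and 52, 58.3 and 65.0 CPM in HOM. All 10 HOM libraries were below the WT mean, though only 2 were below the lowest WT library, and the HET median lay between. The log2 fold change of HOM against WT was -0.17 (SE 0.04, adjusted p = 0.0155, edgeR), and the call held with any 1 library left out.

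Pcdh11x (ENSMUSG00000034755, chrX:120290259-120910619, plus strand), the X-linked delta 1 member, was also lower in HOM. It stood at 16.0, 17.3 and 19.2 CPM in WT, 12.8, 15.2 and 16.2 CPM in HET and 12.7, 15.4 and 17.8 CPM in HOM. In each of HET and HOM 8 of 10 libraries were below the lowest WT library. Its log2 fold change in HOM against WT was -0.22 (SE 0.06, adjusted p = 0.0204, edgeR), and it was called with any 1 library left out. The HET difference from WT was of the same size, -0.22 (SE 0.06), and did not pass over all genes (edgeR adjusted p = 0.34). Pcdh7, also delta 1, was at 53.6, 62.7 and 69.5 CPM in WT and 48.6, 58.9 and 62.7 CPM in HOM, a difference of -0.10 in log2 (SE 0.06, edgeR adjusted p = 0.255). For Pcdh1, the fourth member of this class, it was 0.06 (SE 0.04, edgeR adjusted p = 0.391), with libraries of 218 to 282 CPM in WT and 246 to 291 CPM in HOM.

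Of the delta 2 genes 1 of 5 was called, beside the same 3.71% of all genes called lower. Pcdh10 (ENSMUSG00000049100, chr3:45378398-45434566, plus strand), which is known to act in axon outgrowth and in the removal of synapses, stood at 193, 202 and 215 CPM in WT, 176, 190 and 201 CPM in HET and 173, 185 and 216 CPM in HOM. All 10 HET libraries were below the WT mean, 7 HOM libraries were below the lowest WT library and 1 HOM library was above the highest. The log2 fold changes were -0.11 (SE 0.03) both in HOM against WT, where it passed narrowly (adjusted p = 0.0474, edgeR), and in HET against WT, where it did not (edgeR adjusted p = 0.406). The HOM call held in only 10 of the 28 cases of leaving out 1 library, and limma voom gave an adjusted p of 0.0702. The other delta 2 genes had log2 fold changes of -0.14 (Pcdh19), -0.08 (Pcdh17), -0.01 (Pcdh18) and 0.19 (Pcdh8), and none passed. Outside both classes Pcdh15, a protein of hair cell tip links, was at 0.10 (SE 0.06) and Pcdh20 at 0.05 (SE 0.09), neither of which passed.

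Per kb of exon the single genes differed 29.8-fold in WT. Pcdh1 was highest with 28.7 ± 2.38 CPM per kb (SD, n = 8), above Pcdh9 with 16.6, Pcdh10 with 13.7, Pcdh7 with 9.09 and Pcdh17 with 5.63, down to Pcdh18 with 1.10 and Pcdh15 with 0.962. Of the 10 neighbouring pairs in this order 4 had overlapping WT ranges: Pcdh9 and Pcdh10, Pcdh20 and Pcdh19, Pcdh11x and Pcdh18, and Pcdh18 and Pcdh15. Exon lengths came from GENCODE vM21 within the bounds of the row, which for Pcdh9 leaves 3.966 kb. A longer transcript in the annotation used for counting would lower its value per kb. Pcdh10 varied together with several other single genes over the 28 libraries after removal of the genotype means, with correlations of 0.68 with Pcdh15, 0.66 with Pcdh11x and 0.61 with Pcdh19, chosen as the highest after the values were seen.

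Promoters of clustered protocadherins are known to carry a conserved element with the core CGCT. The single genes were searched for these letters on both strands (CGCT or AGCG, which can overlap as AGCGCT) in RefSeq promoters on GRCm38.p6, from 250 bases before to 50 after the start, with the chromosome of the clusters left out. All 9 single genes with an entry held at least 1 match, against 61.8% of 32851 promoters. Pcdh10 held 8 matches and Pcdh9 held 2, and 62.3% and 62.7% of their bases were G or C, against a median of 52.7%. The 250 bases before the start are shown for these 2 genes because both were lower in HOM and they differ in the number of matches, which are in capitals. They lie at chr3:45378148-45378397 on the plus strand for Pcdh10 and at chr14:93890680-93890929 on the minus strand for Pcdh9, whose RefSeq start lies outside the row counted.
Pcdh10: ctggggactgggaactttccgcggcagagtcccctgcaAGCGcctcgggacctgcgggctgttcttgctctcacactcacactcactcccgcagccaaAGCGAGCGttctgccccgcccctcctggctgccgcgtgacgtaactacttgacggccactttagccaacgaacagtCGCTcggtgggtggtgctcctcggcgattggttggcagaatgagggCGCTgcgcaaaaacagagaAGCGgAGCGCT
Pcdh9: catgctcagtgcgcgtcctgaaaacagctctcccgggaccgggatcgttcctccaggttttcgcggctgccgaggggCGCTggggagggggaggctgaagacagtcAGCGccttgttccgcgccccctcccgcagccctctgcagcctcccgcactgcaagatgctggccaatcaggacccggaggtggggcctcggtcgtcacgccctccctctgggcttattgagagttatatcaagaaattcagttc
In Pcdh10 the 8 matches are spread over the window, with 3 in its last few bases, while in Pcdh9 both lie in the first part. Pcdh18 held 7 matches with a log2 fold change of -0.01, and Pcdh20 held 1 with 0.05. A match is a run of letters and does not show that a factor binds there.

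Gene length and repeats were also set beside the values. The 4 single genes with the longest spans were Pcdh15 (1547 kb), Pcdh9 (873 kb), Pcdh11x (620 kb) and Pcdh7 (411 kb), with log2 fold changes of HOM against WT of 0.10, -0.17, -0.22 and -0.10. Pcdhb5, with the smallest p, spans 3.533 kb without an intron. A run of 6 TG units, written TGTGTGTGTGTG and searched on the sense strand of spliced GENCODE vM21 transcripts, occurred in 3 of the 32 members searched (Pcdh15, Pcdh17 and Pcdhb14), against 11% of 21901 protein-coding genes. None of the 3 was called. The Pcdhb14 run lies at bases 6438 to 6473 of its transcript of 8695 bases. The Pcdhb14 row holds 3.438 kb of exon, so the run may lie outside the sequence counted. Introns, where TDP-43 is known to bind as well, were not searched.

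In HET against WT no member passed, and neither did any of the 16110 genes (0% called, edgeR). At an unadjusted p under 0.05 there were 4 members (11.8%) and 1547 genes (9.6%). Those 4 were Pcdh11x (-0.22), Pcdh10 (-0.11), Pcdh9 (-0.09) and Pcdh1, which was above WT by 0.10. DESeq2 and limma voom each called 0 members, beside 12 of 20400 and 14 of 16110 genes called by these tools. Pcdhb5 was at -0.05 (SE 0.06) in HET and the alpha row at -0.02 (SE 0.03). Of 11 striatal neuron markers none was called and 4 had an unadjusted edgeR p under 0.05, with a median log2 fold change of -0.53.

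HOM against HET called none of the 34, with 0.0372% of all genes called (edgeR). Members with an unadjusted p under 0.05 were Pcdhb5 (-0.22, SE 0.05), Pcdh7 (-0.12, SE 0.05) and the alpha row (-0.06, SE 0.02). These 3 are 8.82% of the members, near the 8.54% of all genes at that p. DESeq2 and limma voom each called 1, Pcdhb5, beside 48 of 15654 and 42 of 16110 genes called by these tools. For Pcdh11x and Pcdh10 the values were 0.00 in both cases, with SEs of 0.05 and 0.03. These comparisons share the WT or HOM libraries with the one above and are not independent of it. In HOM against HET the 11 striatal markers had a median of 0.45, with none called and 4 at an unadjusted edgeR p under 0.05. What part of the differences from or to HET goes with striatal content was not tested.

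A fit of a straight line on the number of Q331K alleles called 4 members, all lower, with 7.78% of all genes called in either direction and 3.79% lower. They were Pcdhb5 (-0.13 per allele, SE 0.03, adjusted p = 0.00514, edgeR), Pcdh9 (-0.09, SE 0.02), Pcdh11x (-0.11, SE 0.03) and the alpha row (-0.04, SE 0.01). Pcdh10 did not pass (-0.05 per allele, edgeR adjusted p = 0.0597). No member had all HOM libraries below all WT libraries, a separation found in 0.223% of all genes.

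Markers of several other cell types were higher in the same HOM libraries, where 7.61% of all genes were called in either direction against WT. Of 21 endothelial and mural markers 8 were higher and none lower, with a median log2 fold change of 0.17 and sums of 543 to 597 CPM in WT, 557 to 690 in HET and 582 to 690 in HOM. Of 15 meningeal fibroblast markers 2 were higher, with a median of 0.55 and sums of 239 to 553 CPM in WT and 279 to 1259 CPM in HOM. Higher were also 8 of 14 microglial, 3 of 12 astrocyte and 5 of 10 oligodendrocyte precursor markers. Oligodendrocyte markers were not: 0 of 13 passed with edgeR, DESeq2 or limma voom (1 at an unadjusted edgeR p under 0.05), with a median of -0.09 and mean sums of 4934 CPM in WT and 4749 CPM in HOM. Likewise 0 of 12 excitatory neuron markers passed (edgeR, DESeq2 and limma voom; 2 at an unadjusted p under 0.05), with a median of -0.03. Interneuron markers were called in both directions, 2 higher and 2 lower of 14, and DESeq2 and limma voom each called 5. Their median was -0.09, with 7 at an unadjusted edgeR p under 0.05, beside 3962 of all 16110 genes. Mean sums of the interneuron markers were 1608 CPM in WT and 1536 CPM in HOM.

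With the mean levels of the meningeal and vascular lists as covariates no member was called in HOM against WT, while 95 of 16110 genes (0.59%) were (edgeR). At an unadjusted p under 0.05 there were 4 members, 11.8% of them beside 15.1% of all genes, and 22 of 34 (64.7%) were below 0, beside 48.9% of all genes. Pcdhb5 was then at -0.27 (SE 0.07, edgeR adjusted p = 0.0873), as far from 0 as without the covariates. Pcdh11x was at -0.15, Pcdh9 at -0.08, Pcdh10 at -0.05 and the alpha row at -0.03, each nearer to 0 than before. Without WT 6 and HOM 3, an alternative added after the data were seen, Pcdhb5 (-0.25) and Pcdh11x (-0.24) were called and Pcdh9 was at -0.15 (edgeR adjusted p = 0.0592). That fit called 509 of 16132 genes in either direction. Marker levels and genotype moved together in these libraries, and what part of each difference goes with cell makeup was not tested further.

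**Figure D4:**
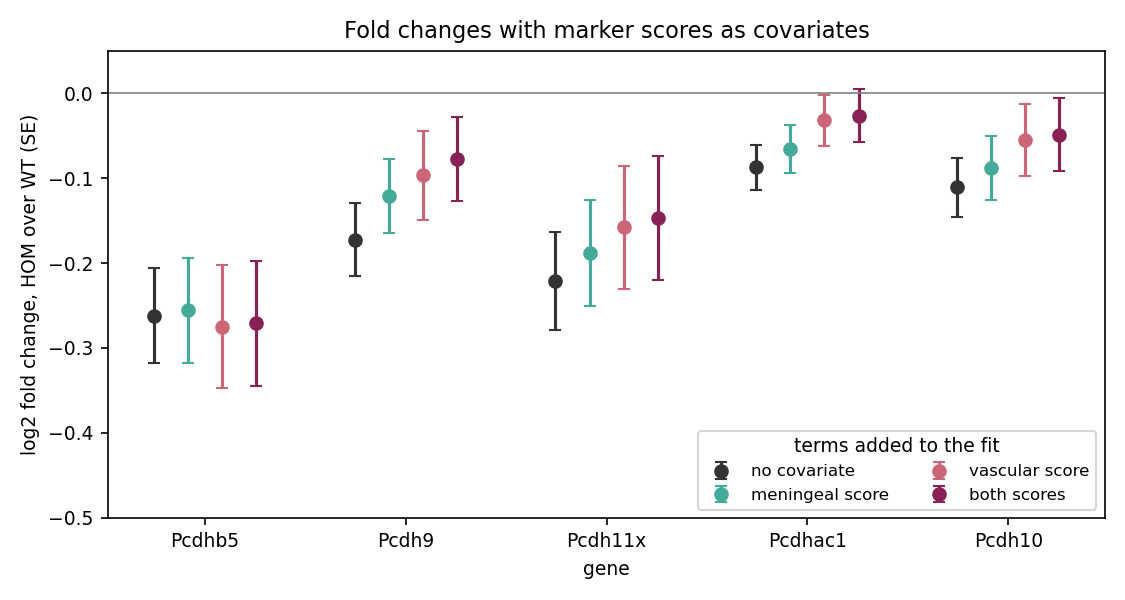
Log2 fold change of HOM over WT with its SE (y axis) for the 5 members called lower (x axis), in fits with no covariate and with the meningeal score, the vascular score or both. Pcdhb5 stays between -0.27 and -0.26, while the alpha row goes from -0.09 to -0.03 with both scores.

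Of 25 regulators tested, among them CTCF and cohesin, which loop the cluster enhancers to the chosen promoter, none was higher or lower in HOM against WT (edgeR). The share of all genes called was 7.61%, counting both directions. At an unadjusted edgeR p under 0.05 there were 7 of the 25, beside 3962 of all 16110 genes in either direction. DESeq2 called 1 (Smc3) and limma voom 0, and the median log2 fold change of the 25 was -0.02. The smallest p-values belonged to the cohesin subunit Smc3 (-0.07, SE 0.03, adjusted p = 0.0705), the histone methyltransferase Ehmt2 (0.10, SE 0.04, adjusted p = 0.086) and the cohesin release factor Wapal (-0.10, SE 0.04, adjusted p = 0.0928).

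Of 26 genes tested from a list of protocadherin partners, most of them intracellular, 1 was higher and 2 were lower in HOM, with a median of 0.01. Among all genes 7.61% were called in either direction. At an unadjusted edgeR p under 0.05 there were 4 of the 26, beside 3962 of all 16110 genes. Cyfip2 and Cyfip1 are subunits of the WAVE complex, which links delta protocadherins to actin. Cyfip2 was lower, with a log2 fold change of -0.11 (SE 0.03, adjusted p = 0.0268, edgeR), at 1159 ± 41.5 CPM in WT (SD, n = 8) and 1077 ± 54.1 CPM in HOM (n = 10). Cyfip1 was higher (0.08, SE 0.02, edgeR adjusted p = 0.0367). Nlgn1, a transmembrane adhesion protein of the postsynapse and not an intracellular one, was lower (-0.14, SE 0.04, edgeR adjusted p = 0.0416).

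The other cadherins and catenins were called in both directions, 4 higher and 4 lower of 37 tested, with a median of 0.01. All genes were called in 7.61% of cases, counting both directions. Lower were the neuronal type II cadherins Cdh8 (-0.28, SE 0.06), Cdh7 (-0.26, SE 0.05), Cdh18 (-0.24, SE 0.06) and Cdh10 (-0.18, SE 0.05). Cdh8 went from 31.3 ± 1.08 CPM in WT to 25.8 ± 3.23 CPM in HOM (SD, n = 8 and 10; adjusted p = 0.00447, edgeR). Higher were Cdh5, the cadherin of endothelial junctions and one of the vascular markers above (0.21, SE 0.05), Dchs1, a large cadherin that binds Fat4 (0.19, SE 0.05), and the catenins Ctnna1 (0.13, SE 0.04) and Ctnnb1 (0.10, SE 0.03).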

How the data were processed

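PolyA RNA of frontal cortex was sequenced after TRIsure and RNeasy extraction with a stranded mRNA kit, per the labels' protocols. The submitters' processing notes name Trim Galore 0.4.3, HISAT2 2.0.5 and the build GRCm38. Counting tool, strand setting and annotation: not given in the sources used here. Values deposited by the authors are raw read counts per gene (25965 rows); 122 rows of 57 identifiers, none a member, were summed.

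Total counts of 30.46 to 74.91 M reads per library set the precision. Genes were filtered with filterByExpr (16110 left), scaled by TMM and tested in 1 edgeR 4.0.16 fit of all 28 libraries (glmQLFit robust, glmQLFTest, two-sided, R 4.3.3), with a separate fit for the slope. Benjamini-Hochberg adjustment ran over all genes, with a threshold of 0.05. Levels are TMM-scaled CPM, and intervals are 1.96 SE. Levels per kb use exon lengths of GENCODE vM21, which held all 34 identifiers. Correlations use log2 of CPM plus 0.1. Scripts were tested on simulated data. No 2 libraries agreed within sampling noise (chi-square over its degrees of freedom at least 5.89 in 378 pairs).

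The members, gene lists and tests were chosen with earlier results of these data known. Named were all called members, the 4 smallest p and 3 highest levels per kb in each subgroup, the members nearest the minimum, and in each list the called genes or, with fewer than 3, up to 3 with the smallest p. Other members are named with values where stated or as members of a class.

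Alternatives were DESeq2 1.42.0, its size factors, limma 3.58.1 voom with quality weights, no filter, 1 CPM in 8 libraries, only the groups compared, the replicate block, the marker scores as covariates, and each library left out. Fits with 1 marker score alone and without WT 6 and HOM 3 were added after seeing the data. Of the remaining marker lists, none of 10 choroid plexus and ependyma and 11 striatal markers (median log2 fold changes 0.28 and -0.03) was called in HOM against WT by edgeR, DESeq2 or limma voom, with 1 and 0 at an unadjusted edgeR p under 0.05.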

Additional observations from a re-analysis of the deposited data

Results flagged for a closer look

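Of 102 groups of libraries (34 members in 3 genotypes), 5 had 1 library far from the others by Dixon's criterion, which chance alone gives in about 1 in 20 groups. The alpha row stood at 160.6 CPM in HOM 10, where the nearest HOM library had 172.1 CPM. Pcdhb2 was at 2.695 CPM in HET 7, below the nearest at 3.276 CPM. Pcdhb3 reached 12.13 CPM in WT 3, above the nearest at 10.14 CPM. Pcdh18 was at 4.841 CPM in HOM 1, below the nearest at 5.654 CPM, and Pcdh19 reached 33.89 CPM in HET 9, above the nearest at 28.27 CPM. These 5 values fell in 5 different libraries.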

How the results depend on the processing

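Of the 5 members called in HOM against WT, 3 were called with the replicate block, 0 with both marker scores as covariates, 1 with the meningeal score alone, 0 with the vascular score alone and 2 without WT 6 and HOM 3, the last 3 being chosen after seeing the data. In the same order these fits called 737, 95, 390, 113 and 509 of all genes, beside 1226 in the main fit. Leaving out 1 library gave 3 to 5 called members in all, beside 595 to 1345 of all genes. Of the original 5, 3 remained without WT 1, WT 2, WT 6, WT 7, HOM 2, HOM 3 or HOM 10. Gained were Pcdhb8 without HOM 1, Pcdhb3 without HOM 2, Pcdhb2 without HOM 6 and Pcdhb14 without HOM 10. Pcdh10 was also not called with no filter (edgeR adjusted p = 0.0572) or with only the groups compared (edgeR adjusted p = 0.0804). Pcdhb5, Pcdh9 and Pcdh11x were called in all 28 of these, the alpha row in 20 and Pcdh10 in 10. For HOM against HET, 0 members became 1 with DESeq2 and 1 with limma voom, while all genes called went from 6 to 48 and 42. The slope called 4 members, which became 7 with DESeq2, 0 with both scores, 1 with the meningeal score, 1 with the vascular score, 2 without WT 6 and HOM 3, and 2 to 6 with 1 library left out (2 without WT 2). Over all genes the slope called 1254 in the main fit, 1599 with DESeq2, 120 with both scores and 479 with the meningeal score. It called 133 with the vascular score, 608 without WT 6 and HOM 3, and 681 to 1401 with 1 library left out. HET against WT stayed at 0 members in every alternative run, with 0 to 14 of all genes called. The cause of these changes was not tested. No member called in the main analysis changed direction in any of 39 alternatives.

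Libraries with the same number were not treated as pairs in the main fit, and the labels do not say whether they belong together. Over 26 same-number pairs the correlation of deviations ran from -0.164 to 0.183, and 5 pairs were over 0.1. The median was 0.011, beside -0.007 for other numbers, and 2 libraries correlated best with their own number. These correlations cannot show whether such libraries shared a litter or batch. SEs of log2 fold changes ran from 0.02 for the gamma row to 0.13 for Pcdhb8.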
